A study of Homo sapiens with 2 samples.

Results

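Axon guidance genes encode the cues and receptors that steer growing nerve fibres, and many cell types outside the nervous system use them in adhesion, migration and vessel growth. They were taken here as every gene of the ephrin, Eph, semaphorin, plexin, neuropilin, slit, robo, netrin and UNC5 families that is listed under its family name and has at least 1 protein-coding RefSeq transcript. The rule found 68 genes among 26370 gene names, 35 of them ligands and 33 receptors. RNA was sequenced from a treated and an untreated culture of CHME3, an immortalised line of human microglia by its label, with 1 library each. The treated cells received muscarinic receptor antagonists, and the dose named is 5 µg/ml. The labels name neither the antagonist nor the length of exposure. No replicate stands behind any difference, and every interval compares these 2 libraries and not the conditions. In bulk RNA a smaller number of expressing cells and less RNA per cell cannot be told apart.

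Ephrins are membrane-bound ligands of the Eph receptor tyrosine kinases, and both partners can signal when cells touch. Semaphorins, secreted or membrane-bound, act through plexins, whose cytoplasmic part switches off small GTPases of the Ras family, and most secreted class 3 members need a neuropilin as the binding subunit. Slits are secreted ligands of robo receptors, and netrins are laminin-related proteins that act through DCC and the UNC5 receptors. In the brain, microglia are known to use neuropilins, plexins and semaphorins in contact with neurons and vessels.

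Levels are given in FPKM, fragments scaled by transcript length and by library depth, and added up over all listed transcripts of each gene. The depth recovered from the deposited values was 7312570 fragments in the treated and 6834691 in the untreated library. The label microglia was met by few marker genes. Of 15 microglia markers, 2 averaged 1 FPKM or more, and the others had at most 2.2 fragments in a library. Among those, 8 had no fragment in either library, including AIF1, TMEM119, CX3CR1 and PTPRC. CD68, a lysosomal protein of macrophages, was at 12.6 FPKM in the treated and 15.7 FPKM in the untreated library. Of 7 fibroblast markers, COL1A1, PDGFRB and THY1 were over 1 FPKM, and COL3A1, LUM and DCN were listed at 0 in both. COL1A2 was at 0.157 FPKM in the treated and 0.196 FPKM in the untreated library. Summed fibroblast markers were at 678 FPKM in the treated and 636 FPKM in the untreated library. Most of this sum was COL1A1, at 545 FPKM in the treated and 499 FPKM in the untreated library. The part of these differences in the results below was not tested.

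Of the 68 genes, 39 averaged 1 FPKM or more over the 2 libraries, a share of 57.4%. Over all 19230 genes with a protein-coding RefSeq transcript the same share was 57.2%. A further 24 genes lay above 0 and under 1 FPKM, and 5 were listed at 0 in both libraries, against 22.6% of all such genes. All 8 ephrins, all 6 class 4 semaphorins and both neuropilins passed 1 FPKM. Plexins passed in 7 of 9 genes and robos in 3 of 4. EphA receptors passed in 1 of 9 genes, UNC5 receptors in 1 of 4 and slits in 0 of 3. Summed over the 68 genes, the level was 444 FPKM in the treated and 448 FPKM in the untreated library.

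**Figure D1:**
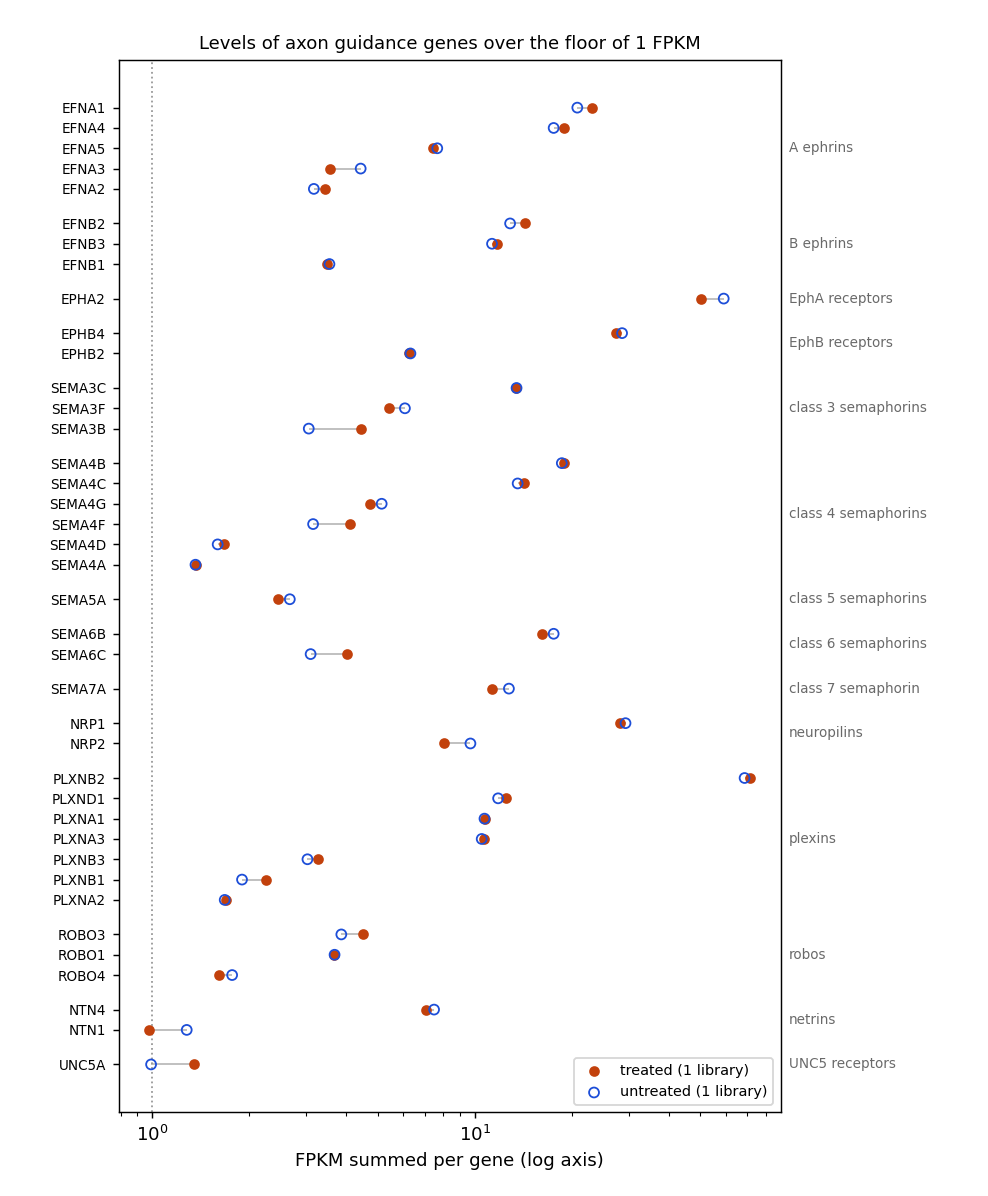
Level of the 39 axon guidance genes that averaged 1 FPKM or more. Each row is a gene and the log axis gives FPKM in the treated library (filled) and the untreated library (open), 1 library each. PLXNB2 and EPHA2 stand highest, and the pairs of points lie close together in nearly every row.

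Levels of these genes differed little between the libraries. No gene of the 39 reached 1.5-fold in either direction on the scale of log2 (FPKM + 1), which understates the change of genes with low values. Over all 11668 genes that averaged 1 FPKM or more, 2.23% did so, 1.2% higher and 1.03% lower in the treated library, and 0.66% reached 2-fold. The share among the axon guidance genes is therefore near the background. Their median log2 ratio was 0.01, with 21 genes higher and 18 lower, against 0.00 for all genes. The distance between quartiles was 0.165 for these genes and 0.204 for all genes. The lowest log2 ratio was -0.26, for EFNA3, and the highest 0.42, for SEMA3B. Ligands, with 12 higher and 11 lower, and receptors, with 9 higher and 7 lower, both had a median of about 0. The order of the 39 levels was nearly the same in both libraries, with a Spearman's rho of 0.987 across genes, which share library and depth and are not replicates. Over all 11668 genes that averaged 1 FPKM or more it was 0.977.

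A finer measure is the number of fragments behind each level, scaled by depth, with a 95% exact counting interval. This interval excluded 1 for 3 of the 39 genes, above 1 for SEMA4F and below 1 for EPHA2 and NRP2. Over all genes the interval excluded 1 in 12.7%, above in 7.24% and below in 5.46%, so the share of 7.69% among these genes does not exceed the background. The interval covers counting error only and leaves out differences between cultures.

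**Figure D2:**
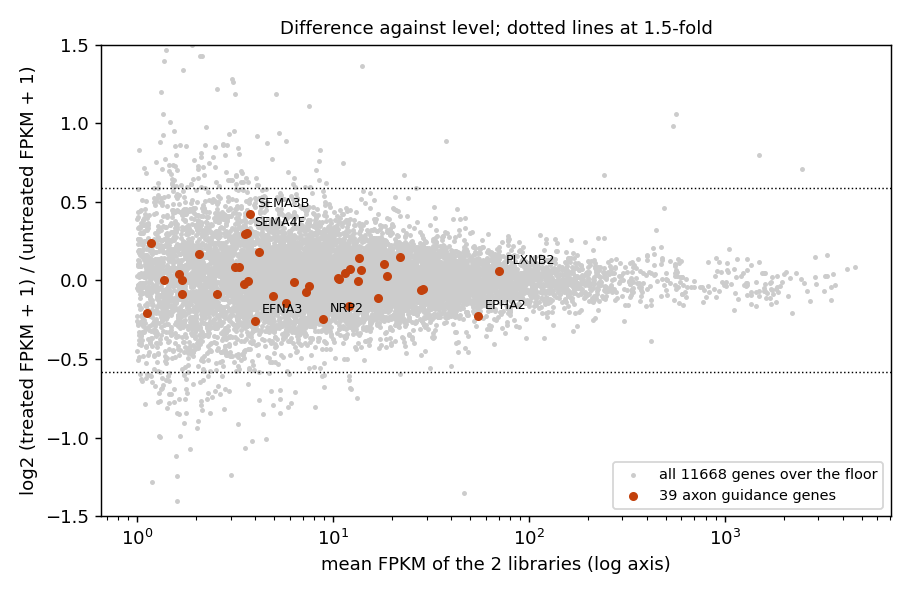
Difference between the libraries against level. Each grey point is 1 of 11668 genes and each coloured point 1 of 39 axon guidance genes, the vertical axis is the log2 ratio of treated over untreated (FPKM + 1), and 50 genes beyond 1.5 on this axis are not drawn. All coloured points lie between the dotted lines at 1.5-fold.

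Among the ligands of the Eph system, every ephrin was present. EFNA1, which is tethered by a lipid anchor and is a high-affinity ligand of EPHA2, was at 23.1 FPKM in the treated library and 20.8 FPKM in the untreated library. EFNA4, another anchored ephrin, was at 18.96 FPKM in the treated and 17.6 FPKM in the untreated library. EFNA5 was at 7.43 FPKM in treated cells and 7.65 FPKM in untreated cells. These values put EFNA1 and EFNA4 well above the remaining A ephrins in both libraries. EFNA3 was at 3.55 and EFNA2 at 3.42 FPKM in the treated library, against 4.43 and 3.17 FPKM in the untreated library. EFNA3 rested on 41.5 fragments in the treated and 48.1 in the untreated library, a ratio of 0.806 with an interval of 0.513 to 1.24. The intervals of all 5 A ephrins included 1. Summed A ephrins were at 56.5 FPKM in the treated and 53.6 FPKM in the untreated library.

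EFNA4, EFNA3 and EFNA1 lie side by side on chromosome 1, on the forward strand of hg38, at 155063737 to 155069553, 155078872 to 155087538 and 155127873 to 155134910. Their levels differ within this cluster, with EFNA3 lower than both neighbours in both libraries. An exon of EFNA4 shares 180 bases with LOC100505666 on the other strand, which was at 4.44 FPKM in the treated and 2.38 FPKM in the untreated library. The labels do not say whether strand was kept, so reads of overlapping exons cannot be assigned with certainty.

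The transmembrane ephrins were led by EFNB2, the ligand that marks arterial endothelium and binds EPHB4. It was at 14.3 FPKM in the treated library and 12.9 FPKM in the untreated library, a fragment ratio of 1.11 (0.968 to 1.28), where brackets give the counting interval. EFNB3 was at 11.7 FPKM in treated cells and 11.3 FPKM in untreated cells. EFNB1 was at 3.48 FPKM in treated cells and 3.54 FPKM in untreated cells. All 3 intervals included 1.

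On the receptor side, EPHA2, a kinase known from epithelial and tumour cells, held nearly the whole EphA signal. It is encoded on the reverse strand of chromosome 1 at 16124337 to 16156087. Its level was 50.4 FPKM in the treated library, against 59.2 FPKM in the untreated library, from 1394 and 1525.5 fragments. The lower and upper bounds in the authors' files were 47.7 and 53.1 FPKM for the treated value and 56.1 and 62.2 FPKM for the untreated value, so they do not overlap. The fragment ratio was 0.854 (0.794 to 0.919), and the log2 ratio of (FPKM + 1) was -0.23. Of 783 genes with 2000 to 4000 fragments over both libraries, 10.9% also had an interval below 1 and 20.9% an interval that excluded 1. EPHA2 made up 98.2% of the summed EphA receptors in treated cells and 97.3% in untreated cells. Because of it, the EphA sum was at 51.3 FPKM in the treated and 60.8 FPKM in the untreated library.

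The other 8 EphA receptors were under 1 FPKM. EPHA4, which binds both classes of ephrin, was at 0.439 FPKM in the treated and 0.447 FPKM in the untreated library, from 20 and 19 fragments. EPHA6 was at 0.247 FPKM in treated cells and 0.941 FPKM in untreated cells, but rested on 6 and 7 fragments, a ratio of 0.801 (0.222 to 2.78). The FPKM of EPHA6 differ more than its fragments because transcript length enters FPKM: the untreated fragments were listed under NM_001278301, of 1281 bases, and nearly all treated ones under NM_001080448, of 3677 bases. EPHA3 and EPHA7 were listed at 0 in both libraries. For EPHA3, 3 fragments would correspond to 0.164 FPKM in the treated and 0.176 FPKM in the untreated library. EPHA5 was at 0.164 FPKM in treated cells and 0.117 FPKM in untreated cells, from 6 fragments each, and EPHA1, EPHA8 and EPHA10 had under 2 fragments in either library.

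EPHB4, the receptor of EFNB2, was the main B-type receptor. It was at 27.4 FPKM in the treated library and 28.6 FPKM in the untreated library, from 834.5 and 814 fragments, a ratio of 0.958 (0.868 to 1.06). EPHB2, which binds all B ephrins, was at 6.27 FPKM in treated cells and 6.32 FPKM in untreated cells. Both of their intervals included 1. EPHB3 was at 0.102 FPKM in treated cells and 0.254 FPKM in untreated cells, from 3 and 7 fragments. EPHB1, and EPHB6, which lacks kinase activity, had at most 2 fragments in either library.

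**Figure D3:**
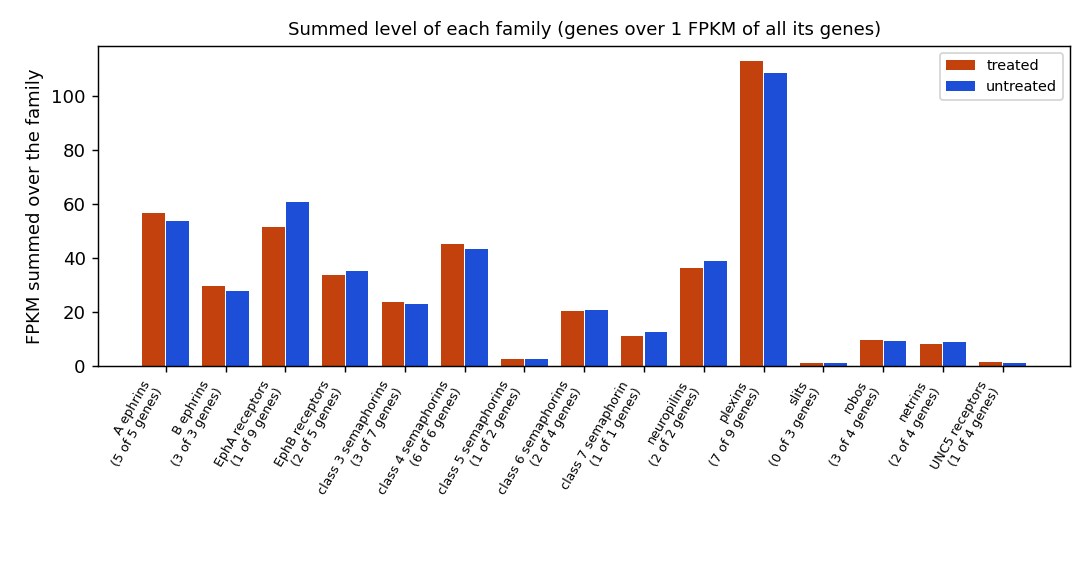
Summed FPKM of each family in the treated (left bar) and untreated (right bar) library, with the number of genes over 1 FPKM of all genes in the family below each pair. Plexins form the highest bars, at 113 FPKM in treated and 109 FPKM in untreated cells, and slits and UNC5 receptors are close to 0.

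Semaphorins summed to 102.8 FPKM in the treated and 102.6 FPKM in the untreated library, with 13 of 20 genes over 1 FPKM. Of the secreted class 3, SEMA3C, a ligand of neuropilins with plexin D1 and A plexins, was highest, at 13.4 FPKM in the treated and 13.5 FPKM in the untreated library. SEMA3F, a ligand of NRP2, was at 5.41 FPKM in treated cells and 6.07 FPKM in untreated cells, a fragment ratio of 0.894 (0.699 to 1.14). Both intervals included 1. SEMA3B, a gene on chromosome 3 at 50267558 to 50277171 and known as a tumour suppressor, was at 4.43 FPKM in the treated library and 3.06 FPKM in the untreated library. It has the highest log2 ratio of the 39 genes, but its fragments numbered 70 and 52, a ratio of 1.26 (0.866 to 1.84). As in EPHA6, the listed transcripts differ in length, and NM_001290062, of 2227 bases, was at 3.37 FPKM in treated cells and 0.619 FPKM in untreated cells. SEMA3A, the classical collapse factor of growth cones, was at 0.0499 FPKM in the treated and 0.0803 FPKM in the untreated library, from 2 and 3 fragments. SEMA3D was at 0.203 FPKM in treated cells and 0.0965 FPKM in untreated cells, and SEMA3E at 0.171 FPKM in treated cells and 0.133 FPKM in untreated cells, each from under 10 fragments. SEMA3G was listed at 0 in both.

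All 6 class 4 semaphorins, which span the membrane, were over 1 FPKM. SEMA4B was at 18.97 FPKM in the treated and 18.6 FPKM in the untreated library. SEMA4C, a ligand of PLXNB2, was at 14.2 FPKM in treated cells and 13.6 FPKM in untreated cells. These were the main members of the class, and neither interval excluded 1. SEMA4F, on chromosome 2 at 74654228 to 74683854, was at 4.11 FPKM in the treated library, against 3.15 FPKM in the untreated library. From 177 and 127 fragments its ratio was 1.30 (1.03 to 1.65), with a log2 ratio of (FPKM + 1) of 0.30. Its protein-coding transcripts alone were at 3.62 FPKM in treated cells and 3.15 FPKM in untreated cells, a log2 ratio of 0.15, and its most abundant transcript had a log2 ratio of 0.06. SEMA4G was at 4.73 FPKM in treated cells and 5.15 FPKM in untreated cells. Its longest exon overlap is 170 bases, with the opposite-strand gene MRPL43, which was at 85.9 FPKM in treated and 79.3 FPKM in untreated cells. SEMA4D, a ligand of plexin B1 known from lymphocytes, was at 1.67 FPKM in treated cells and 1.60 FPKM in untreated cells. SEMA4A was at 1.36 FPKM in both libraries, each from 28 fragments.

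Of the remaining semaphorins, SEMA6B, a transmembrane ligand of A plexins, was at 16.2 FPKM in the treated and 17.6 FPKM in the untreated library, a fragment ratio of 0.925 (0.811 to 1.06). SEMA6C was at 4.02 FPKM in treated cells and 3.10 FPKM in untreated cells, a ratio of 1.30 (0.966 to 1.76), about as far from 1 as SEMA4F but from fewer fragments. SEMA5A, a ligand of plexin B3, was at 2.46 FPKM in treated cells and 2.67 FPKM in untreated cells. SEMA7A, the one semaphorin held by a lipid anchor, was at 11.3 FPKM in the treated and 12.8 FPKM in the untreated library, a ratio of 0.888 (0.747 to 1.05). SEMA6A, SEMA6D and SEMA5B each had about 1 fragment or none.

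Plexins were the most abundant family, with 113 FPKM in the treated and 109 FPKM in the untreated library. PLXNB2, a receptor of class 4 semaphorins on chromosome 22 at 50274979 to 50307572, had the highest level of all 68 genes. It was at 71.6 FPKM in the treated library and 68.7 FPKM in the untreated library, from 3222 and 2884 fragments, a ratio of 1.04 (0.993 to 1.10). PLXND1, known from vessel patterning, was at 12.5 FPKM in treated cells and 11.8 FPKM in untreated cells. PLXNA1 and PLXNA3, partners of neuropilins, were at 10.8 and 10.7 FPKM in the treated library, against 10.7 and 10.5 FPKM in the untreated library. The authors' bounds of both genes overlap in each library. PLXNB3 was at 3.27 FPKM in treated cells and 3.03 FPKM in untreated cells, and PLXNB1 at 2.25 FPKM in treated cells and 1.90 FPKM in untreated cells. PLXNA2 was at 1.69 FPKM in treated cells and 1.68 FPKM in untreated cells. All 7 plexins over 1 FPKM had a log2 ratio above 0, from 0.01 to 0.17, and every one of their intervals included 1. Of all genes that averaged 1 FPKM or more, 50.7% had a log2 ratio above 0. Plexins were 1 of several families looked at, and their shared direction was not tested. With the most abundant transcript of each gene alone, PLXNB1 was at -0.05. PLXNC1, the plexin that binds SEMA7A, was at 0.0740 FPKM in the treated and 0.237 FPKM in the untreated library, from 3.5 and 7 fragments. PLXNA4, of sensory and sympathetic neurons, was listed at 0 in the treated library and had about 1 fragment in the untreated library.

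**Figure D4:**
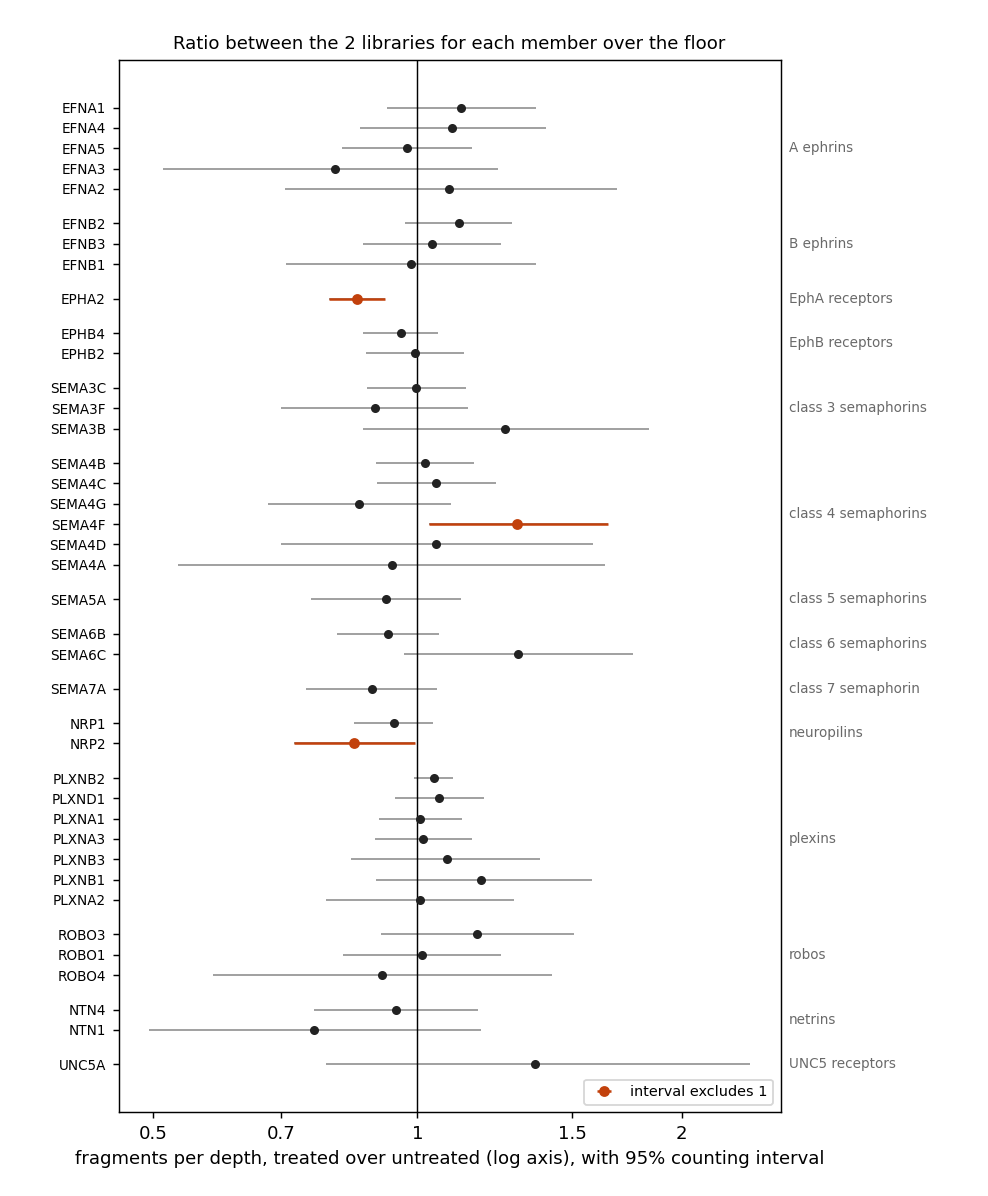
Depth-scaled fragments in the treated over the untreated library for the 39 genes, on a log axis, with 95% exact counting intervals, grouped by family. Intervals of EPHA2 and NRP2 lie below 1 and that of SEMA4F above 1, and the other 36 include 1.

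The neuropilins bind class 3 semaphorins and also growth factors of the VEGF family. NRP1, on the reverse strand of chromosome 10 at 33177491 to 33334905, was at 28.2 FPKM in the treated library and 29.4 FPKM in the untreated library, a fragment ratio of 0.940 (0.846 to 1.04). NRP2, on chromosome 2 at 205682500 to 205798133, was at 8.03 FPKM in the treated library, against 9.70 FPKM in the untreated library. From 304 and 335 fragments its ratio was 0.848 (0.724 to 0.994), an upper bound just under 1. Of 2422 genes with 500 to 1000 fragments over both libraries, 4.91% had an interval below 1 and 11.1% one that excluded it.

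The transcripts of NRP1 differed far more than the gene. The forms NM_001024628 and NM_001024629 end early and encode soluble neuropilin without the membrane-spanning part, and they differ from each other by 1 exon of 105 bases. NM_001024628, which has this exon, was at 6.34 FPKM in the treated library, against 15.9 FPKM in the untreated library. NM_001024629, which lacks it, was at 10.8 FPKM in the treated library, against 1.33 FPKM in the untreated library. The authors' bounds do not overlap in either form. The 2 forms differed in opposite directions and their sum was nearly equal, at 17.1 FPKM in the treated and 17.2 FPKM in the untreated library, or 60.8% and 58.6% of NRP1. The early-ending forms rested on 279 fragments in the treated and 268 in the untreated library, a ratio of 0.975 (0.820 to 1.15). Of the full-length forms, NM_003873 was at 4.74 FPKM in treated cells and 5.04 FPKM in untreated cells. NM_001244973, which uses the same exon without its last 21 bases, was at 6.32 FPKM in treated cells and 4.31 FPKM in untreated cells, also with bounds that do not overlap. The noncoding record NR_045259 was close to 0 in the treated library, with an upper bound of 0.0498 FPKM, against 2.80 FPKM in the untreated library. How fragments were divided between such overlapping forms was set by the authors' program and was not tested.

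Reads over exons or their junctions were not examined. The exon sequences by which these transcripts differ are shown here. They were read from GENCODE release 29 transcripts on GRCh38 at the positions where the deposited exons of the forms differ, lie in coding sequence there, and are written 5′ to 3′ on the strand of the gene. Capitals mark the 21 bases that NM_001244973 leaves out of the NRP1 exon. The NRP1 exon is at chromosome 10, 33202891 to 33202995, the NRP2 segment at chromosome 2, 205766804 to 205766818, the SEMA7A segment at chromosome 15, 74418268 to 74418309, and the EFNA1 exon at chromosome 1, 155133503 to 155133568.
NRP1 exon in NM_001024628, absent from NM_001024629: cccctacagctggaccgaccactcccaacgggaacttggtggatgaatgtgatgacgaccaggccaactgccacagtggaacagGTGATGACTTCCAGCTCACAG
NRP2 segment in NM_018534, absent from NM_201267: gtgagaattttaaag
SEMA7A segment in NM_003612, absent from NM_001146029: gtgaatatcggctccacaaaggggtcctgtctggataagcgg
EFNA1 exon in NM_004428, absent from NM_182685: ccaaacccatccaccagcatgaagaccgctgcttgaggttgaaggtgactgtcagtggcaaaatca
All 4 segments have a length that is a multiple of 3, from 15 to 105 bases, so including or leaving them out keeps the reading frame.

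NRP2 has forms with 3 different 3′ ends. NM_201267, of 16 exons, uses the middle of these ends and was at 1.78 FPKM in the treated library, against 3.38 FPKM in the untreated library. NM_018534, which differs from it by the 15 bases shown, was at 0.425 FPKM in treated cells and close to 0 in untreated cells. The 2 transcripts with this middle end together had 63.7 fragments in the treated and 90.9 in the untreated library, a ratio of 0.655 (0.470 to 0.915). Intervals for such groups of transcripts leave out how the authors' program divided fragments between overlapping forms. The forms with the furthest end, of 16 or 17 exons, summed to 4.65 FPKM in the treated and 5.07 FPKM in the untreated library. Their fragment ratio was 0.918 (0.759 to 1.11). Of these, NM_003872 was at 4.65 FPKM in treated cells and 4.67 FPKM in untreated cells. NM_201266, of 6662 bases against 6647 in NM_003872, went the other way from NM_018534. It was close to 0 in treated cells and at 0.406 FPKM in untreated cells, with bounds that do not overlap. Whether its extra bases are the 15 shown was not checked. NM_201264, of 9 exons, ends first and was at 1.17 FPKM in treated cells and 1.25 FPKM in untreated cells.

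Such shifts between transcripts were common in these libraries. With at least 5 FPKM for the gene, and transcripts taken when they held at least 10% of it in a library, 5 of the axon guidance genes had 2 or more major protein-coding transcripts, 13 in all. The authors' bounds did not overlap for 7 of the 13, at least 1 in each of EPHB2, NRP1, NRP2, SEMA4B and SEMA7A. Over 6583 transcripts chosen the same way from 2764 genes this held for 27%. Transcripts of a gene share fragments, so the 7 are not separate observations. SEMA7A without the 42 bases shown, NM_001146029, was at 0.457 FPKM in the treated library, against 2.72 FPKM in the untreated library, while NM_003612, which has them, was at 10.8 FPKM in treated cells and 10.05 FPKM in untreated cells. SEMA4B from its downstream start, NM_198925, was at 7.23 FPKM in treated cells and 4.44 FPKM in untreated cells. EPHB2 form NM_004442 was at 1.14 FPKM in treated cells and 0.418 FPKM in untreated cells. In EFNA1 the form with the 66-base exon shown was at 23.1 FPKM in treated cells and 20.1 FPKM in untreated cells. The form without that exon was close to 0 in treated cells and at 0.728 FPKM in untreated cells, with overlapping bounds.

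**Figure D5:**
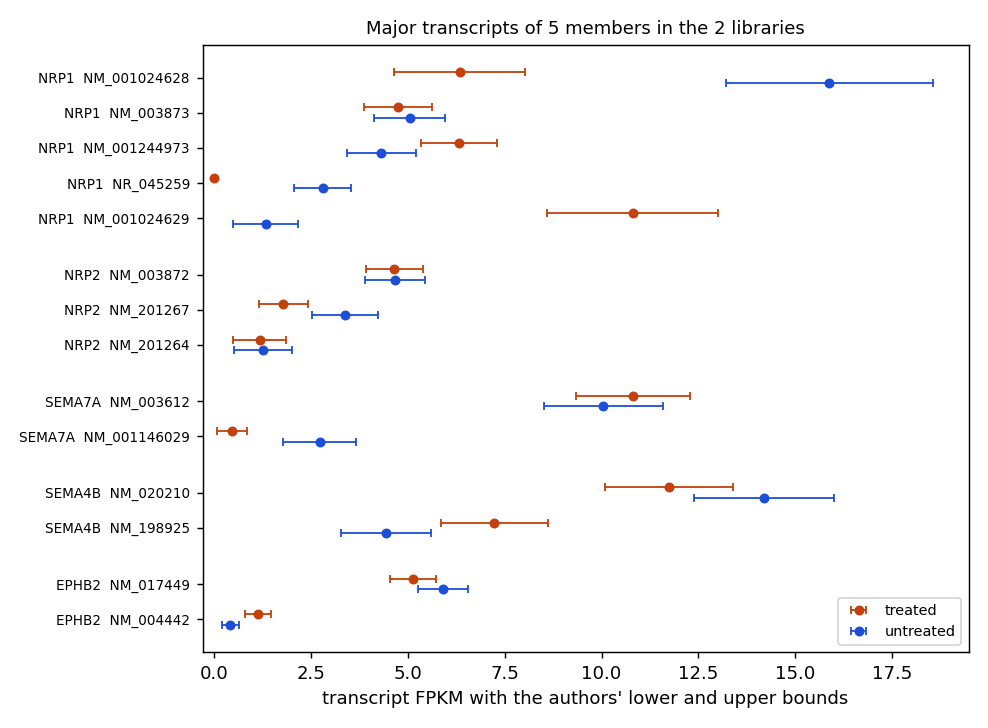
Major transcripts of NRP1, NRP2, SEMA7A, SEMA4B and EPHB2, with NRP1 NR_045259 added. Points give transcript FPKM in the treated library (upper of each pair) and the untreated library (lower), and bars run to the lower and upper bounds in the authors' files. The bars of NM_001024628 and NM_001024629 lie far apart in opposite directions.

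Slit ligands were scarce and robo receptors low. SLIT3 was at 0.976 FPKM in the treated and 0.769 FPKM in the untreated library, from 68 and 50 fragments, a ratio of 1.27 (0.869 to 1.87). SLIT2, a repellent at the midline of the nervous system, was at 0.309 FPKM in treated cells and 0.379 FPKM in untreated cells, and SLIT1 had 1 fragment in each library. Summed slits came to 1.30 FPKM in the treated and 1.17 FPKM in the untreated library. ROBO3, which in mammals is known to have lost high-affinity slit binding, was at 4.504 FPKM in treated cells and 3.86 FPKM in untreated cells, a ratio of 1.17 (0.910 to 1.51). ROBO1, a slit receptor, was at 3.66 FPKM in treated cells and 3.68 FPKM in untreated cells. ROBO4, known from endothelium, was at 1.61 FPKM in treated cells and 1.77 FPKM in untreated cells, while of 4 endothelial markers PECAM1 and TEK were listed at 0 in both libraries. CDH5 had 2 fragments in the treated and 3 in the untreated library, and VWF had 2 in the treated and 0 in the untreated library. ROBO2 had less than 1 fragment in each. ROBO3 and ROBO4 are neighbours on chromosome 11, 2743 bases apart.

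Netrins were represented by NTN4, a basement membrane netrin, at 7.05 FPKM in the treated and 7.48 FPKM in the untreated library, a ratio of 0.945 (0.763 to 1.17). NTN1, the classical attractant of commissural axons, was at 0.975 FPKM in treated cells and 1.28 FPKM in untreated cells, a ratio of 0.763 (0.494 to 1.18). NTN5 had 1 fragment in the treated library, and NTN3 was listed at 0 in both. Of the UNC5 receptors, UNC5A alone passed 1 FPKM in the mean, at 1.35 FPKM in the treated and 0.992 FPKM in the untreated library, from 35 and 24 fragments, a ratio of 1.36 (0.788 to 2.40). UNC5B and UNC5C had about 2 fragments or fewer in each library, and UNC5D was listed at 0. DCC, the attractive netrin receptor, had under 1 fragment in the treated library and was listed at 0 in the untreated library. NEO1, the related receptor neogenin, was at 7.35 FPKM in treated cells and 7.38 FPKM in untreated cells.

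Other genes of these pathways, a list of 68 co-receptors, effectors and VEGF partners, were likewise close between the libraries. Of them 52 averaged 1 FPKM or more, none of these reached 1.5-fold on the scale of log2 (FPKM + 1), and their median log2 ratio on it was 0.00, with 27 higher and 25 lower. The counting interval lay above 1 in 6 and below 1 in 4, or 19.2% against the 12.7% of all genes. That background is not matched for fragments. It was 11.1% for genes with 500 to 1000 fragments over both libraries and 20.9% for those with 2000 to 4000. The cause of the difference was not tested. The highest levels belonged to effectors of the cytoskeleton. CFL1, the actin-severing protein cofilin, was at 852 FPKM in the treated and 786 FPKM in the untreated library, a ratio of 1.09 (1.06 to 1.13). RHOA, the GTPase that drives contraction, was at 327 FPKM in treated cells and 345 FPKM in untreated cells, a ratio of 0.954 (0.913 to 0.996). RAC1, which drives protrusion, was at 184 FPKM in treated cells and 191 FPKM in untreated cells. RRAS, a target of plexins, was at 84.1 FPKM in treated cells and 89.6 FPKM in untreated cells, and CDC42 at 86.2 FPKM in treated cells and 81.1 FPKM in untreated cells.

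The largest differences in that list were in genes of lower level. DPYSL4, of the family that relays semaphorin signals, was at 9.43 FPKM in the treated and 6.91 FPKM in the untreated library, a ratio of 1.37 (1.08 to 1.75). FARP2, an exchange factor of A plexins, was at 3.86 FPKM in treated cells and 2.69 FPKM in untreated cells, a ratio of 1.49 (1.01 to 2.22). ARHGEF11, which links B plexins to RhoA, was at 5.98 FPKM in treated cells and 4.99 FPKM in untreated cells, a ratio of 1.20 (1.01 to 1.44). These 3 were higher in the treated library, and the next gene was lower. NCK1, an adaptor protein, was at 5.70 FPKM in treated cells and 7.29 FPKM in untreated cells, a ratio of 0.784 (0.638 to 0.962). ROCK2, a kinase downstream of RhoA, was at 8.27 FPKM in treated cells and 6.999 FPKM in untreated cells, a ratio of 1.18 (1.01 to 1.38). The remaining 3 had intervals that included 1. CHN1, a Rac regulator in Eph signalling, was at 1.90 FPKM in treated cells and 1.14 FPKM in untreated cells, a ratio of 1.66 (0.905 to 3.14). PGF, which binds NRP1, was at 10.5 FPKM in treated cells and 12.7 FPKM in untreated cells. VEGFC, a VEGF that binds NRP2, was at 2.37 FPKM in treated cells and 3.71 FPKM in untreated cells, a ratio of 0.643 (0.400 to 1.02).

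Set beside each other, partners known to bind were not always at like levels. EPHA2 and EFNA1, EPHB4 and EFNB2, PLXNB2 and SEMA4C, and NRP1 and SEMA3C were each over 10 FPKM in both libraries. SEMA7A was over 10 FPKM in both while its plexin receptor PLXNC1 was under 1 FPKM. ROBO1 was over 1 FPKM in both while all 3 slits were under it. Of these SLIT3 came closest, at 0.976 FPKM in the treated and 0.769 FPKM in the untreated library, from 68 and 50 fragments. These are levels of RNA in a culture of 1 cell line, and no binding was measured.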

How the data were processed

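Per the labels, total RNA of 1 treated and 1 untreated CHME3 culture was made into TruSeq libraries. TopHat, Cuffdiff and hg38 are named in the submitters' processing notes, with versions not given in the sources used here. Per the file headers, Cufflinks wrote the values: both deposited files list 56891 RefSeq transcripts with FPKM, bounds of each FPKM, coverage and a score, the last of which was not used.

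FPKM values were summed per gene, and genes entered with a mean of at least 1 FPKM. The log2 ratio used a pseudocount of 1 FPKM. Fragments were recovered from the authors' bounds: whole numbers of at least 10 in genes with 1 transcript of at least 1000 bases fixed how many fragments 1 FPKM is worth at each length, and this was applied to every transcript. Of 12306 treated and 12374 untreated gene values of at least 3 fragments, 72.7% and 72.7% came out whole within 0.01 fragments. Ratios of depth-scaled fragments have 95% exact conditional binomial intervals on rounded fragments. Their check on simulated data drew counts with counting error alone, so it cannot speak to other sources of error. Uncertainty in the division of fragments between transcripts is not in these intervals.

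Members and gene lists were chosen with earlier results of these data known. Named are all members, and of the pathway list the 5 highest and the 8 with the largest log2 ratio. NEO1, DCC, PECAM1, TEK, CDH5, VWF, NR_045259, NM_018534, NM_201266 and the EFNA1, EPHA6 and SEMA3B transcripts were named after their values were seen. The member and pathway lists were matched by the files' gene names, with older names found in a RefSeq gene table. Of the microglia markers, 1 gene is not reported here. Python 3.11.15, pandas 2.3.3 and scipy 1.17.1 were used.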

Additional observations from a re-analysis of the deposited data

How the results depend on the processing

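The 2 libraries allow no test over samples, and leaving out a library leaves no comparison. No paired analysis was possible because each condition has 1 library. Under 9 alternative settings of pseudocount, floor, transcripts and scaling, the median log2 ratio of the axon guidance genes ran from -0.01 to 0.01 and that of the pathway list from -0.01 to 0.02. Counts of genes at 1.5-fold stayed at 0 except under 2 settings. With no floor, 1 gene was lower, EPHA6, which rests on 6 and 7 fragments. With the most abundant transcript of each gene alone, 1 was higher, SEMA3B, at a log2 ratio of 1.43, and 1 was lower, NRP1, at -1.20, because that choice takes a single form of each. The values of NRP2, SEMA4B and SEMA7A also moved beyond their counting interval with that choice, to -0.00, -0.25 and 0.10, against -0.25, 0.03 and -0.17. Leaving out the noncoding NRP1 record turned NRP1 to 0.08, against -0.06. The other 326 of 332 values stayed within their interval, widened where needed to hold the main value. Many of them could not move. The floors change only which genes enter, and the choices of transcript leave genes with 1 transcript as they were. The count is therefore no measure of stability. The count of genes whose interval excludes 1, a result added after seeing the data, stayed at 3 with fragments scaled to the median ratio of all genes and with no floor, and was 2 with a floor of 5 FPKM, which SEMA4F does not reach. At under 10 fragments a gene's ratio is not resolved at this depth.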
